A study of Mus musculus with 6 samples.

Results

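The genes described here code for the parts of the peroxisome in mouse liver: the peroxins that build the organelle, and the enzymes and transporters that oxidise lipids, amino acids and other substrates inside it. They were chosen by name, as 45 rows of the deposited table of raw read counts, out of 23412 rows in all. All 45 were found, Pex11g under its older symbol Pex11c, and 44 had enough counts to be tested. RNA was sequenced from livers of C57BL/6J mice, an inbred strain, aged 8 weeks by the labels, which give no other genotype and no sex. Every animal had a high-fat diet for 4 weeks. In 3 libraries (group HFD_Lira3d) the mice then received liraglutide, a drug that activates the GLP-1 receptor, subcutaneously at 300 µg/kg for 3 days, and in 3 libraries (group HFD_PBS3d) phosphate-buffered saline (PBS). Drug and vehicle were compared to find transcripts of the liver that respond within days.

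Peroxisomes are bounded by a single membrane and are abundant in hepatocytes. Their matrix proteins are made in the cytosol and imported folded, bound by the receptors Pex5 or Pex7, and their membrane proteins are inserted with the help of Pex3, Pex16 and Pex19. Inside, very long chain, branched and dicarboxylic acyl-CoAs and the side chains of bile acid precursors are shortened by beta-oxidation, whose first step makes hydrogen peroxide that catalase removes. In rodents many genes of this pathway are controlled by the nuclear receptor PPAR-alpha, and PPAR-alpha agonists are known to make liver peroxisomes multiply.

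Total counts lay between 20888991 and 27007182 per library. Libraries are named here by group and the number of their column (Lira161, Lira162, Lira164, PBS155, PBS157, PBS158). Levels are CPM, counts brought to a common library size after TMM scaling. Genes were called where edgeR's quasi-likelihood test gave a Benjamini-Hochberg adjusted p under 0.05 over all 12626 genes tested. A principal component analysis used only the tested genes that varied most between libraries. On its first component (67.2% of the variance of those genes) the PBS libraries lay between 16.7 and 22.3. Lira161 and Lira162 lay at -19.2 and -27.1, and Lira164 nearest to PBS at -10.3. Nothing in the labels ties each library to its own animal, and the p-values cover library spread alone, part of which could be technical. All 8 hepatocyte markers listed had counts in every library, led by Alb at 41037 to 76534 CPM, and 2 of them were called (Hnf4a higher at 0.53, Serpina1c lower at -0.76, log2; adjusted p = 0.0338 and 0.0159). In pieces of liver, fewer cells of a type and less RNA per cell cannot be told apart. Markers of endothelial cells summed to 161.2 to 255 CPM under liraglutide and 94.6 to 181 under PBS, with 1 of 6 called (Clec4g, higher). Macrophage markers (0 of 7 called) summed to 191 to 312 and 84.6 to 341, highest in PBS155. Stellate cell markers (0 of 7 called) summed to 311 to 360 and 186 to 309.98, and bile duct markers to 26.5 to 28.6 and 41.9 to 50.8, with 1 of 5 called (Spp1, lower). Of 5 fat cell markers, Adipoq, Lep and Plin1 were at or below 0.145 CPM, while Adrb3 (mean 5.14 CPM under liraglutide and 9.49 under PBS) and Cfd (0.21 and 1.18) were lower in each liraglutide library without being called (adjusted p = 0.1699 and 0.0544). The list summed to 3.55 to 9.04 and 10.3 to 11.2. Of 5 acinar markers, Pnlip and Amy2a5 had 0 counts, and Cela1, with most of the list's sum of 6.95 to 9.40 and 10.1 to 22.3, was also lower in each liraglutide library (8.49 and 16.4, adjusted p = 0.0811). Of the genes that mark hepatocyte zones, 3 of 7 tested periportal ones (Cyp2f2, Hal, Gls2) and 2 of 8 pericentral ones (Rhbg, Cyp1a2) fell and none rose. Periportal markers nevertheless summed to 9730 to 13900 under liraglutide and 7181 to 9839 under PBS, since the abundant Cps1 (4414 and 2428, log2 0.86, adjusted p = 0.0862) and Pck1 (5648 and 4142, 0.45, adjusted p = 0.204) were higher in each liraglutide library without being called. Pericentral markers summed to 11615 to 13838 and 12776 to 14599. The part of these cell types in the results below was not tested.

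Peroxisomal genes changed in both directions. Of the 44 tested, 4 rose (Pex11a, Ehhadh, Acaa1b and Pxmp4), 4 fell (Pecr, Pipox, Pxmp2 and Slc25a17) and 36 were not called. The 8 called genes are 18.2% of those tested, where 8.77% of all tested genes were called, 4.08% higher and 4.69% lower. Counts by role, given below, rest on 2 to 13 genes each, too few to read a share of calls as a trait of the role. The median log2 fold change was 0.00 (-0.003) over the 44 genes and 0.01 over all genes, and the median size of the change regardless of sign was 0.23 against 0.21. The libraries of both groups did not overlap for 22 of the 44, 11 higher and 11 lower under liraglutide, where 31.3% of all tested genes did not overlap (14.9% higher and 16.4% lower). The calls of Pex11a, Pecr, Pipox, Pxmp2 and Slc25a17 held whichever single library was left out. Those of Ehhadh, Acaa1b and Pxmp4 did not, and the count of higher genes was 1 without Lira161, Lira162, PBS155 or PBS158 and 2 without PBS157. Without Lira164 all 3 kept their call and Crot was added, which made 5. DESeq2 called 6 higher and 7 lower, where it called 12.2% of all genes, and limma-voom 4 and 5, where it called 8.85%.

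**Figure D1:**
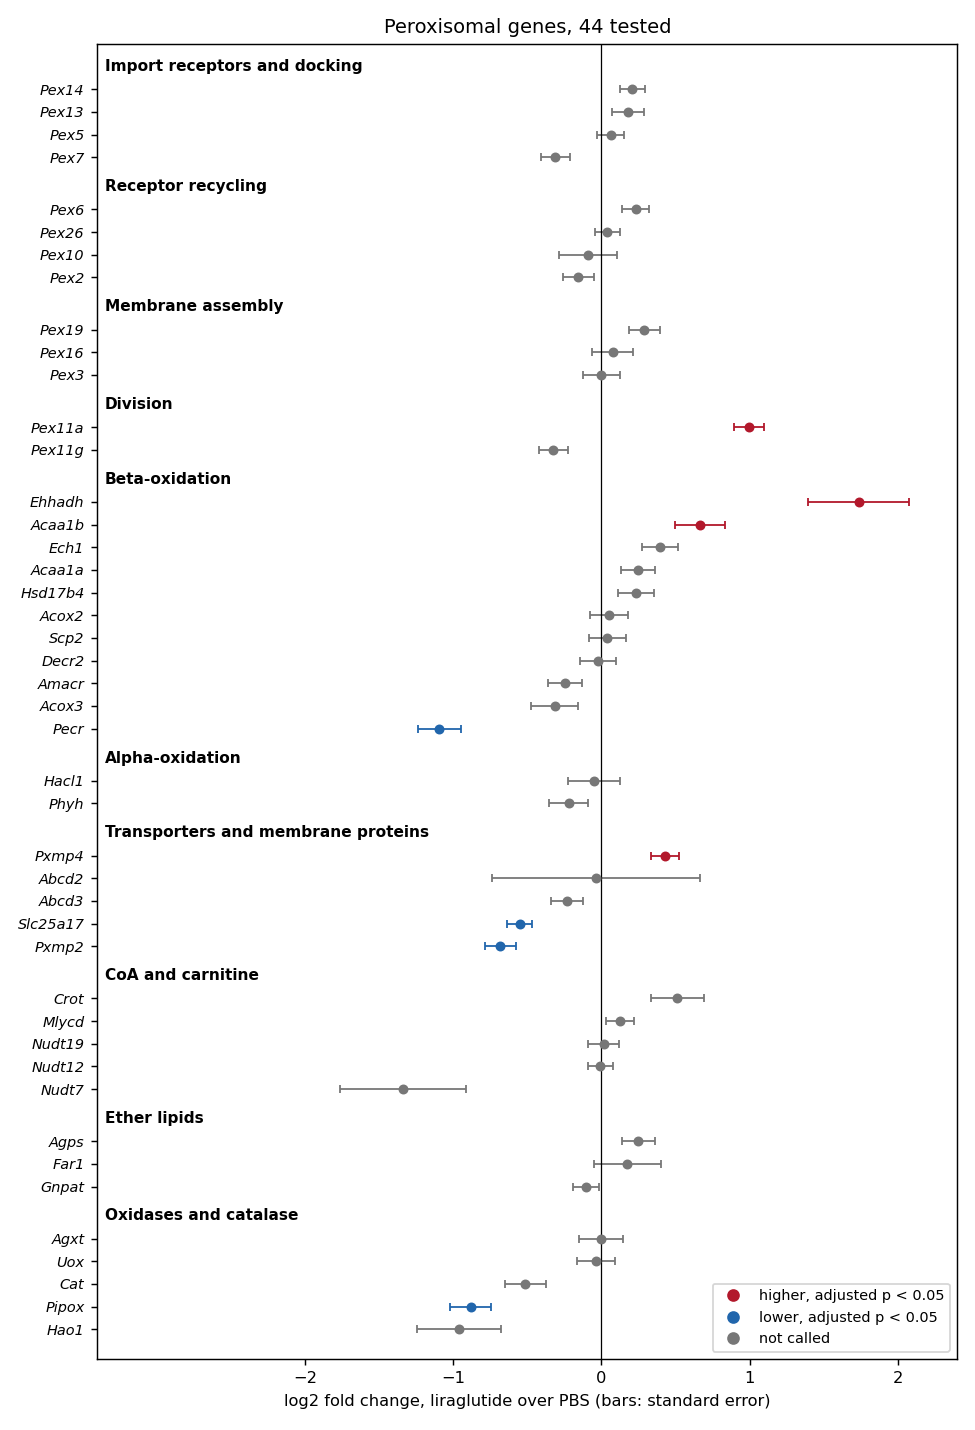
Log2 fold change of liraglutide over PBS for the 44 tested genes, grouped by role, with bars for the standard error (3 libraries per group). Red and blue points are the 4 genes called higher and the 4 called lower, Ehhadh lies farthest to the right at 1.73 and Nudt7, which was not called, farthest to the left at -1.34.

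Of 13 peroxins tested, 1 rose and none fell (7.69% called, close to the 8.77% of all tested genes). The 11 that do not act in division had log2 fold changes between -0.31 and 0.29. The import receptor Pex5, which binds the C-terminal signal of most matrix enzymes, was at 147, 156 and 139 CPM in Lira161, Lira162 and Lira164 and at 141, 135 and 147 in PBS155, PBS157 and PBS158, so the groups overlapped. Pex7, the receptor for the N-terminal signal, was at 51.5, 54.9 and 54.7 CPM under liraglutide and 62.4, 63.2 and 74.4 under PBS. Its groups did not overlap, but it was not called (-0.31 ± 0.10, SE, adjusted p = 0.0821). In the docking complex, Pex13 and Pex14 had log2 fold changes of 0.18 and 0.21 (adjusted p = 0.327 and 0.163). Among the genes that pull the receptor back out for another round (Pex2 and Pex10, ubiquitin ligases, Pex6, an ATPase, and Pex26, its membrane anchor) Pex6 had the smallest p, at 0.23 ± 0.09 (adjusted p = 0.155). Pex19, the chaperone of membrane proteins, was at 216, 209 and 179.8 against 159, 165 and 171 CPM (0.29 ± 0.10, adjusted p = 0.118), and its partners Pex3 and Pex16 at -0.00 (-0.0006) and 0.08.

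Of the division genes 1 of 2 rose. Pex11a, an inducible member of the family that elongates the peroxisomal membrane before it divides (chromosome 7, 79735957 to 79743131, GRCm38), had 142, 127 and 138 CPM in Lira161, Lira162 and Lira164 and 70.3, 61.4 and 72.3 in PBS155, PBS157 and PBS158. All liraglutide libraries were well above all PBS libraries, with little spread in either group. It was 2.00-fold higher (log2 fold change 1.00 ± 0.10, adjusted p = 0.00273), and adjusted p stayed at or below 0.0121 in all 14 alternative fits. Its relative Pex11g (chromosome 8, 3457105 to 3467680) was at 33.9, 32.5 and 32.0 CPM against 37.1, 42.3 and 44.1, lower in every liraglutide library but not called (-0.33 ± 0.10, adjusted p = 0.0699). Exons of Pex11g overlap an unnamed transcript of the other strand over 41.1% of their length, so its level is uncertain. The ratio of Pex11a to Pex11g within a library was 4.19, 3.90 and 4.32 under liraglutide and 1.90, 1.45 and 1.64 under PBS. An exact permutation test over libraries (two-sided) gave p = 0.1, the smallest that 3 against 3 allow, and 0.1 after adjustment for the 2 ratios examined. Pex11a was above and Pex11g below all PBS libraries in every liraglutide library. That p was therefore fixed in advance and adds no support.

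The largest rise among all 44 genes was in beta-oxidation. Of the 11 tested genes placed in that role, 2 rose and 1 fell (27.3% called, against 8.77% of all tested genes). Ehhadh codes for the bifunctional enzyme that hydrates the enoyl-CoA and oxidises the product (chromosome 16, 21761287 to 21787807). It was at 4764, 4242 and 2330 CPM in Lira161, Lira162 and Lira164 and at 821, 1589 and 998 in PBS155, PBS157 and PBS158. The groups did not overlap, with Lira164 the lowest of the liraglutide libraries and PBS157 the highest of the PBS libraries. Ehhadh was 3.33-fold higher (1.73 ± 0.34, adjusted p = 0.0269). It was not called without Lira161, Lira162, PBS155 or PBS158 (adjusted p = 0.0795, 0.108, 0.0562 and 0.104) or without the low-count filter (0.0566), with fold changes of at least 1.53 (log2) throughout. Hsd17b4, the other bifunctional enzyme, which acts on branched chains and bile acid precursors, was at 0.23 ± 0.12 (adjusted p = 0.276).

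The oxidases that start the cycle, Acox2 for bile acid precursors and Acox3 for branched chains, were at 0.05 and -0.32 (adjusted p = 0.839 and 0.242).

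The last step, thiolysis, is coded by a pair of near-copies on chromosome 9. Acaa1b (119148023 to 119157093) was at 3648, 3152 and 2432 CPM in Lira161, Lira162 and Lira164 and 1745, 2141 and 1943 in PBS155, PBS157 and PBS158. It was higher in every liraglutide library (0.66 ± 0.17, adjusted p = 0.0401), but leaving out any library other than Lira164 ended the call (adjusted p between 0.0684 and 0.129). Acaa1a (119339676 to 119350299) was at 410, 430 and 382 against 302, 363 and 364 CPM, also without overlap, and was not called (0.25 ± 0.12, adjusted p = 0.215). The ratio of Acaa1b to Acaa1a was 8.89, 7.33 and 6.37 under liraglutide and 5.78, 5.89 and 5.33 under PBS. The groups did not overlap in that ratio (exact permutation test, two-sided, p = 0.1, the smallest possible, and 0.1 after adjustment for the 2 ratios).

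How far the pair can be told apart by reads is seen in their coding sequences, which have the same length of 1272 bases and are identical at 1228 of them (96.5%). The longest run without a difference is 327 bases. Of all 50-base words in the annotated transcripts, 30.5% of those of Acaa1b and 12.4% of those of Acaa1a also occur in the other gene. No source used here says how reads that match both were counted, which leaves both levels uncertain. The 60 bases of coding sequence where they differ most lie in exon 6 of both genes, at bases 460 to 519 from the start codon (GENCODE M21, GRCm38, chr9:119346483-119346542 on the plus strand for Acaa1a and chr9:119151842-119151901 on the minus strand for Acaa1b). The 11 differences are in capitals:
Acaa1a: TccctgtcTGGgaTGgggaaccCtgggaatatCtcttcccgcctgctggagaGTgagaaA
Acaa1b: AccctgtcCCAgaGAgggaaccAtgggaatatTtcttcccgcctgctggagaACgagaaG

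The 250 bases upstream of their RefSeq starts are shown to compare the pair, together with those of Ehhadh, the largest rise, and Pecr, the largest fall among called genes (RefSeq, GRCm38.p6; chr9:119341044-119341293 plus strand, chr9:119157094-119157343 minus, chr16:21787835-21788084 minus and chr1:72284322-72284571 minus). Capitals mark GC boxes (GGGCGG) and CCAAT boxes (CCAAT) on either strand:
Acaa1a: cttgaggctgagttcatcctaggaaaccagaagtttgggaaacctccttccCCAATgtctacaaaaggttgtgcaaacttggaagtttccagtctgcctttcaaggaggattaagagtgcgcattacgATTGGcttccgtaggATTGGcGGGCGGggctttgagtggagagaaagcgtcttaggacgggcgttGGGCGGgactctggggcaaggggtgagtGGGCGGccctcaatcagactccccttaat
Acaa1b: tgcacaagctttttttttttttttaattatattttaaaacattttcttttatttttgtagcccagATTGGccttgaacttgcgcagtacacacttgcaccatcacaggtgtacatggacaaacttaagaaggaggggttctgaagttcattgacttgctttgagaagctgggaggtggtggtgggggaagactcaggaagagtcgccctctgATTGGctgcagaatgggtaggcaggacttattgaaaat
Ehhadh: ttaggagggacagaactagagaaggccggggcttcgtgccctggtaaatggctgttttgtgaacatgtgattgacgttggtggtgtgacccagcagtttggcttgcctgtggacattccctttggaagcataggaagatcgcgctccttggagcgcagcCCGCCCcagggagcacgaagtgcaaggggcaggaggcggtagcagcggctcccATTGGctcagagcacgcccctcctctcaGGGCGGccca
Pecr: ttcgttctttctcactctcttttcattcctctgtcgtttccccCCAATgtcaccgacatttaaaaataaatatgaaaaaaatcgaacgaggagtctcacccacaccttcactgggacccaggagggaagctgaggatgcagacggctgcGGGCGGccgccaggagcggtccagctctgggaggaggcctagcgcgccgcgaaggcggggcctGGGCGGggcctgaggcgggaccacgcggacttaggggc

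The window of Acaa1a holds 3 GC boxes and 3 CCAAT boxes and is 53.6% G and C, while that of Acaa1b holds 0 and 2 and is 41.6% G and C. Ehhadh and Pecr, which changed in opposite directions, each hold 2 GC boxes and 1 CCAAT box, with 60.4% and 60% G and C. Upstream windows were at hand for 38 of the 45 genes. A GC box was in 24 of them (63.2%), against 62.8% of tested genes and 32.7% of all 32851 windows, and a CCAAT box in 17 (44.7%, against 40.5% and 33.9%). The word AGGTCA on either strand is a core of sites bound by nuclear receptors. It was in the windows of Cat, Dao, Pex11g and Scp2 (10.5%, against 13.4% of tested genes and 14.0% of all windows). A direct repeat of it with 1 base between was in 0 of the 38, against 0.04% of tested genes.

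Among the other genes placed with beta-oxidation in the list, Pecr fell. It codes for a reductase of trans-2-enoyl-CoA (chromosome 1, 72259167 to 72284314), and had 69.3, 65.6 and 90.4 CPM in Lira161, Lira162 and Lira164 and 159, 140 and 182 in PBS155, PBS157 and PBS158. Every liraglutide library was below every PBS library. The level was 2.13-fold lower (-1.09 ± 0.15, adjusted p = 0.00514), with adjusted p of at most 0.026 in the 14 alternative fits. Decr2, a reductase of dienoyl-CoA, was at -0.02 ± 0.12 (adjusted p = 0.925). Ech1, an isomerase of dienoyl-CoA, was at 674, 669 and 636 against 432, 519 and 555 CPM (0.39 ± 0.12, adjusted p = 0.0780), higher in every liraglutide library but not called. Amacr, a racemase of branched acyl-CoA, and Scp2, which codes for a thiolase and sterol carrier, were at -0.24 and 0.04 (adjusted p = 0.223 and 0.880), and 29.7% of the 50-base words of Scp2 also occur in a pseudogene. In alpha-oxidation, which removes 1 carbon from phytanic acid, neither Phyh (-0.22 ± 0.13, adjusted p = 0.333) nor Hacl1 (-0.05 ± 0.18, adjusted p = 0.891) was called. The level of Hacl1 is uncertain, since 31.1% of its exon length overlaps another gene on the same strand and 28.4% of its 50-base words occur elsewhere.

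**Figure D2:**
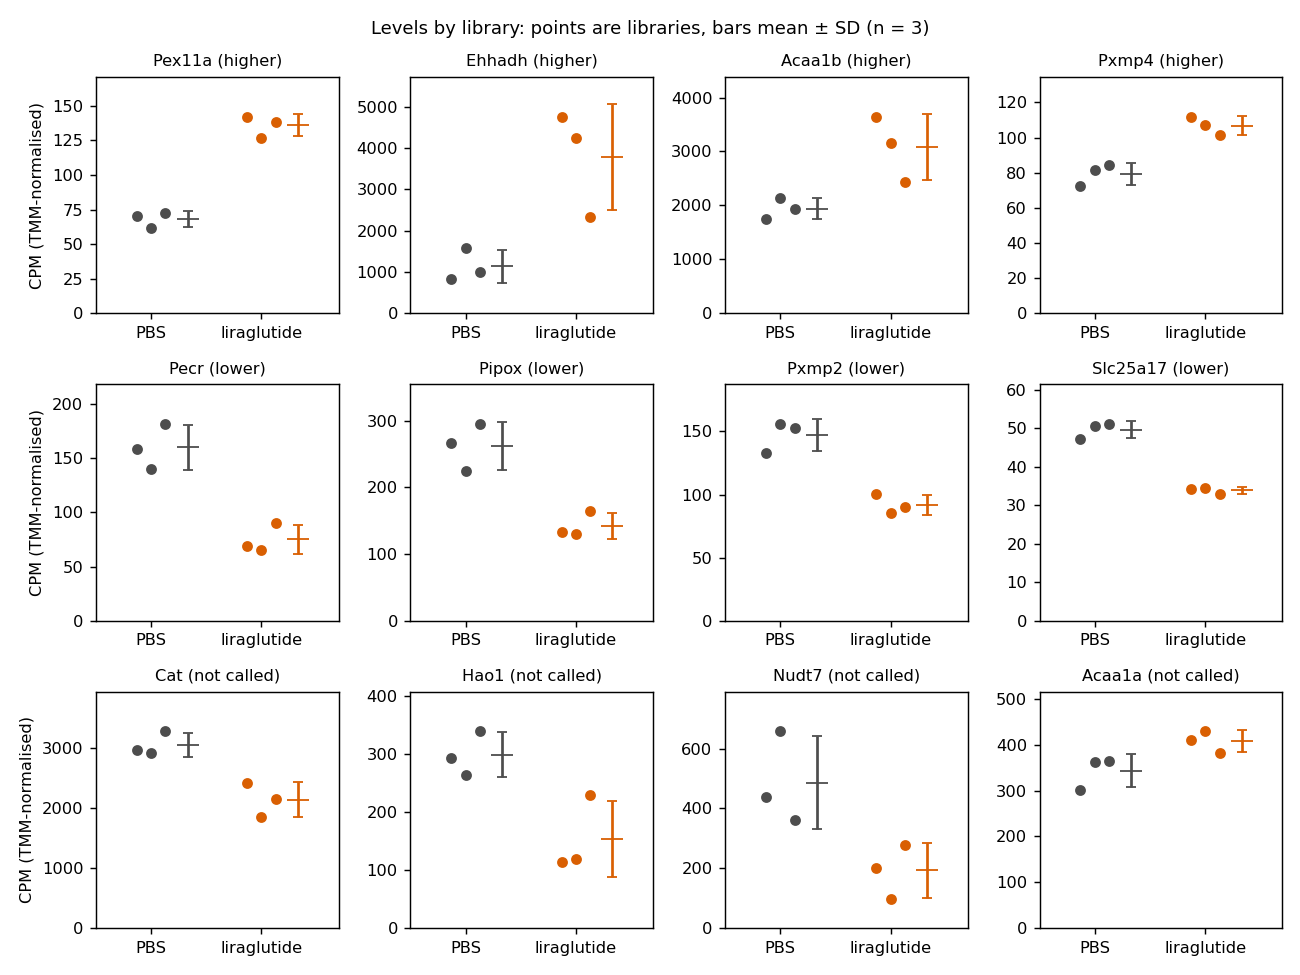
Level in each library (points, CPM) of the 8 called genes, of Cat, Hao1 and Nudt7, and of Acaa1a, with mean and SD of each group beside the points. Pex11a and Slc25a17 have narrow groups far apart, while the liraglutide libraries of Ehhadh spread from 2330 to 4764.

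Membrane proteins changed in both directions, with 1 of 5 higher and 2 lower (60% called, against 8.77% of all tested genes). Pxmp2, a pore-forming protein of the peroxisomal membrane (chromosome 5, 110274282 to 110286186), was at 100.2, 85.3 and 89.8 CPM in Lira161, Lira162 and Lira164 and 133, 156 and 153 in PBS155, PBS157 and PBS158. The groups were apart, and Pxmp2 was 1.60-fold lower (-0.68 ± 0.11, adjusted p = 0.00765). Slc25a17, a carrier of CoA and other nucleotides (chromosome 15, 81318911 to 81360812), was at 34.2, 34.5 and 32.9 against 47.2, 50.6 and 51.2 CPM. It had the smallest standard error of the called genes and fell by 0.55 ± 0.09 on the log2 scale (adjusted p = 0.00765). Pxmp4, a small membrane protein (chromosome 2, 154585758 to 154603708), was at 112, 107 and 101 against 72.4, 81.5 and 84.3 CPM. It was higher in every liraglutide library (0.43 ± 0.10, adjusted p = 0.0272), a call that ended without any library other than Lira164 (adjusted p between 0.0606 and 0.101).

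The ABC transporters carry fatty acids or their CoA esters into the organelle. Abcd3, the most abundant of these in the list, was at 937, 841 and 881 against 1060, 1008 and 1058 CPM (-0.23 ± 0.11, adjusted p = 0.212), without overlap. Abcd2 was at 11.7, 37.5 and 63.0 against 45.3, 18.6 and 51.6 CPM. It had the largest standard error of the 44 genes, 0.70 on the log2 scale, which leaves a change of either sign possible.

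Of the genes that handle CoA and carnitine, none of 5 was called, where 8.77% of all tested genes were. Crot, which makes carnitine esters of shortened chains for export to mitochondria, was at 2209, 1774 and 1374 CPM in Lira161, Lira162 and Lira164 and 1112, 1432 and 1211 in PBS155, PBS157 and PBS158. Lira164 lay below PBS157, and Crot was not called (0.51 ± 0.18, adjusted p = 0.113) except without Lira164 (0.0289) and with DESeq2 (0.0383). Nudt7, a hydrolase of CoA, had the largest decrease of the list in size, with 201, 97.8 and 279 against 439, 659 and 361 CPM. Its libraries did not overlap but spread widely (-1.34 ± 0.43, adjusted p = 0.117; 0.0424 with DESeq2). Nudt12 and Nudt19, of the same hydrolase family, were at -0.01 and 0.02 (adjusted p = 0.973 and 0.944), and Mlycd, the malonyl-CoA decarboxylase, at 0.12 (0.433). The ether lipid genes Gnpat, Agps and Far1, which start plasmalogen synthesis, were at -0.10, 0.25 and 0.18, with adjusted p of at least 0.205.

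The oxidases and catalase had log2 fold changes between -0.96 and -0.01, and 1 of 5 tested was called (20%, against 8.77% of all tested genes). Pipox, which oxidises pipecolic acid and sarcosine (chromosome 11, 77880615 to 77894096), was at 133, 129 and 165 CPM in Lira161, Lira162 and Lira164 and 267, 225 and 296 in PBS155, PBS157 and PBS158. It was lower in every liraglutide library, 1.84-fold (-0.88 ± 0.14, adjusted p = 0.00773). Hao1, the glycolate oxidase (chromosome 2, 134497361 to 134554368), was at 114, 119 and 229 against 293, 264 and 340 CPM. Lira164 stood between the other liraglutide libraries and PBS, and Hao1 was not called (-0.96 ± 0.28, adjusted p = 0.0855) except without Lira164 (-1.37, adjusted p = 0.000713) and with DESeq2 (0.00117).

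Cat, the catalase gene (chromosome 2, 103453849 to 103485160), was at 2423, 1844 and 2153 against 2966, 2914 and 3284 CPM. Each liraglutide library was below each PBS library. At -0.51 ± 0.14 its adjusted p was 0.0506, and it crossed the threshold in 6 of the 14 alternative fits (adjusted p from 0.00221 to 0.162 over all 14). Agxt, which converts glyoxylate to glycine, and Uox, the urate oxidase, were at -0.01 and -0.04 (adjusted p = 0.987 and 0.878). Dao, the D-amino acid oxidase, had 0 counts in all 6 libraries, which allows at most 0.111 to 0.144 CPM per library for 3 counts.

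**Figure D3:**
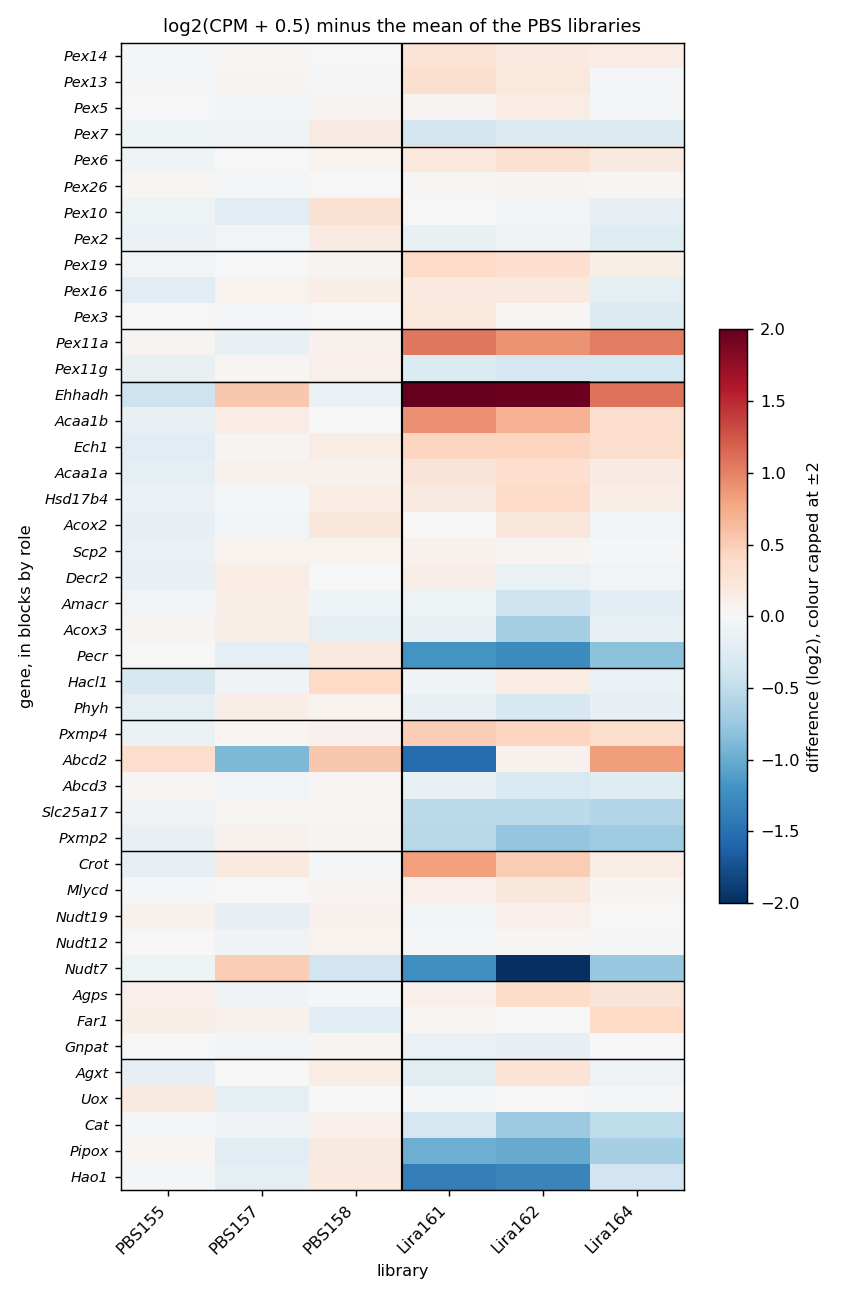
Difference of each tested gene from the mean of the PBS libraries (log2 of CPM plus 0.5, colour capped at 2 in either direction), with libraries in columns and genes in blocks by role. Lira164 is paler than Lira161 and Lira162 for Ehhadh, Acaa1b, Crot, Pecr, Pipox and Hao1, but not for Pex11a, Slc25a17 or Pxmp2.

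CPM were added up over the genes of a role, as TMM-scaled levels and not exact shares of reads. The 11 beta-oxidation genes held 15959, 14897 and 11767 CPM in Lira161, Lira162 and Lira164 and 8918, 11004 and 10332 in PBS155, PBS157 and PBS158. The oxidases and catalase held 4489, 4035 and 4381 against 5629, 5095 and 5859. The first sum was higher and the second lower in each liraglutide library, but few genes carried them. Ehhadh and Acaa1b made up 3777 of the 4123 CPM by which the mean beta-oxidation sum was higher, and the other genes held 7547, 7502 and 7004.5 against 6351, 7275 and 7391 CPM, which overlap. Cat, which was not called, made up -914.5 of the -1226 CPM in the oxidases, and without it the groups overlapped (2065, 2191 and 2228 against 2663, 2181 and 2575). The whole list held 28047, 25696 and 22809 CPM against 21119, 23800 and 23510, where Lira164 fell within the PBS range.

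Levels were compared between genes per kilobase of the principal transcript. Under PBS the highest were Phyh (1766 ± 206 CPM per kb, SD, n = 3), Scp2 (1661 ± 135), Cat (1169 ± 76.6) and Acaa1b (1150 ± 117). Phyh and Scp2, and Cat and Acaa1b, lay within their spread of each other. Under liraglutide Acaa1b moved from rank 4 to rank 1 by mean (1822 ± 362), within its spread of Scp2 (1705 ± 77.3), and Cat from 3 to 5 (819 ± 111). Ehhadh moved from rank 8 (381 ± 135) to rank 4 (1268 ± 430). These orders did not hold in Lira164, where Acaa1b (1440.1) was below Scp2 (1619) and Phyh (1564), and Ehhadh (782) below Cat (824). The peroxins were lower, from 86.0 (Pex19) to 3.15 (Pex10) CPM per kb under PBS, and the ether lipid genes Agps (2.18) and Far1 (0.596) were the lowest with counts.

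**Figure D4:**
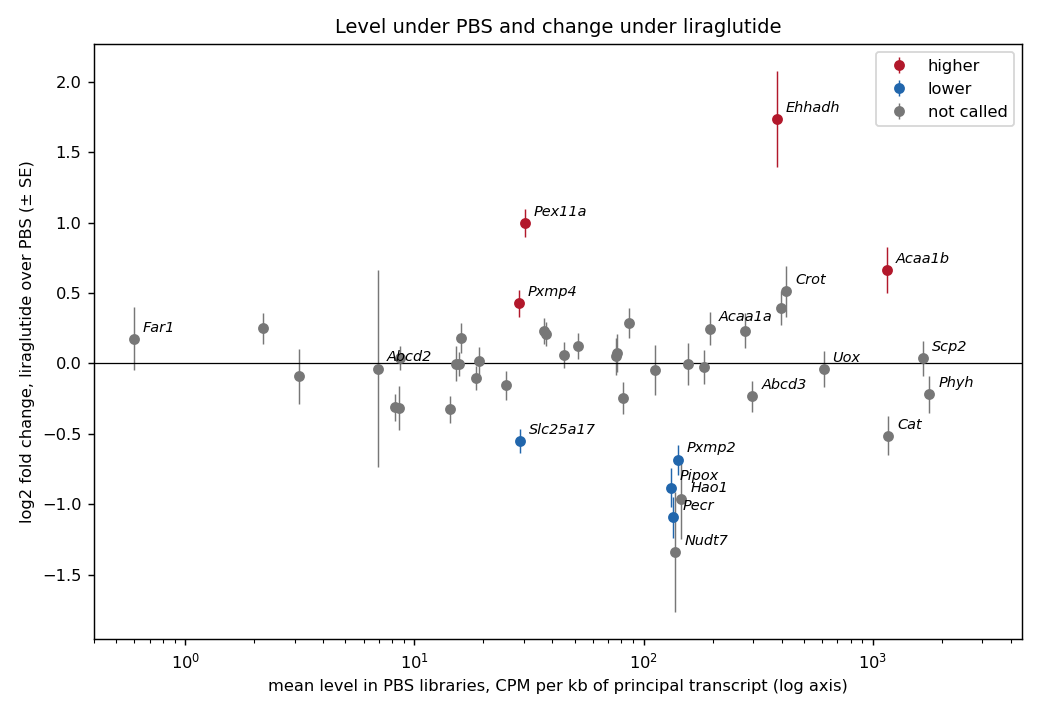
Mean level under PBS (CPM per kilobase, log axis) against log2 fold change with its standard error for the 44 tested genes. Called genes lie from 28.5 (Pxmp4) to 1150 CPM per kb (Acaa1b), and the 3 called genes with the largest decreases, Pecr, Pipox and Pxmp2, have similar levels of 131 to 141.

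Of 57 other genes of the peroxisome and of PPAR-alpha control that were tested, 3 rose, 4 fell and 50 were not called. The 7 called genes are 12.3% of these, where 8.77% of all tested genes were called (4.08% higher and 4.69% lower). Their median log2 fold change over the 57 was 0.06. None of 3 other peroxins was called. Among 17 other lipid enzymes and transporters, Crat, the carnitine acetyltransferase, had 195, 189.9 and 188 CPM against 131, 97.5 and 116 and rose by 0.73 ± 0.12 (adjusted p = 0.00870). Baat, which conjugates bile acids, fell by 0.56 ± 0.12 (adjusted p = 0.0225). Among 15 other oxidases and antioxidant enzymes 1 rose and 2 fell. Hsdl2, a dehydrogenase-like protein, rose by 0.53 ± 0.10, while Gstk1, a glutathione transferase, and Xdh, the xanthine dehydrogenase, fell by 0.67 ± 0.13 and 0.52 ± 0.13 (adjusted p = 0.0155, 0.0150 and 0.0437). Baat was not called without Lira161, Lira162, PBS157 or PBS158, Hsdl2 without Lira161, Lira162 or PBS157, Gstk1 without PBS158 and Xdh without Lira161, Lira162, PBS155 or PBS158 (adjusted p up to 0.158). Xdh was also not called with library totals (0.0826) or with a minimum mean CPM of 5 (0.0501).

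Of 9 genes of division and turnover Mpv17l, a membrane protein, fell from 32.4 ± 1.61 to 15.1 ± 2.67 CPM (SD, n = 3; -1.10 ± 0.13, SE, edgeR adjusted p = 0.00391). The general division genes Fis1, Mff and Dnm1l were at 0.07, 0.16 and 0.08, with adjusted p of at least 0.337. Of 13 genes of PPAR-alpha control, Lpin2 rose, with 1052, 1108 and 835 CPM in Lira161, Lira162 and Lira164 and 355, 487 and 543 in PBS155, PBS157 and PBS158 (1.11 ± 0.18, adjusted p = 0.00803). Lpin2 codes for a phosphatidate phosphatase of the lipin family. Lpin1, of the same family, had the largest log2 fold change of the 57 genes but was not called (1.52 ± 0.69, adjusted p = 0.256). Its level was 470, 449 and 224 CPM against 39.1, 137 and 223, so that Lira164 and PBS158 were all but equal. Ppara itself was at 649, 638 and 710 against 706, 576 and 556 CPM, and its groups overlapped (0.12 ± 0.13, adjusted p = 0.594).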

How the data were processed

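Raw counts of reads for each gene symbol, whole numbers without normalisation, were deposited by the authors for 6 liver libraries. Per the submitters' processing notes, the aligner was STAR and the build mm10. The counter, its annotation and its strand setting are named in no source used here. Reads of overlapping or near-identical genes may therefore be shared. Besides Pex11g, a transcript of the other strand overlapped 35% of the exon length of Nudt19 and 28.3% of that of Pex14. Among called genes such overlaps covered 11.5% for Pecr, 11.4% for Acaa1b and 10.75% for Pxmp2. Each column name holds its group and a number found in none of the labels, which placed it in a group but on no single sample. Pairs of libraries within a group differed by more than sampling noise (chi-square per degree of freedom 31 to 61.3).

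Genes were kept with edgeR's filterByExpr (12626 of 16949 with a count) and tested in R 4.3.3 by edgeR 4.0.16 (TMM, estimateDisp, robust glmQLFit, glmQLFTest, group as the only term), with Benjamini-Hochberg adjustment over all genes tested. Standard errors were taken as the size of the log2 fold change over the root of the F statistic. The fit was tested on counts simulated from the means and dispersions of these libraries, with 200 of 12626 genes changed. It called 18.7% of simulated 1.5-fold changes, 81.7% of 2-fold changes and 96.8% of 4-fold changes. Of its 131 calls there, 7 were false. The real data gave 1107 calls, so these rates need not hold for them.

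The list and its roles were chosen with earlier results of these data known, so no list was tested as a set. Values are given for each called gene, for the gene with the smallest p in each role without a call, and for Cat, Ehhadh, Acaa1a, Acaa1b and Pex11a. In other lists they are given for called genes and Ppara. Nudt7, Hao1, Ech1, Pex11g, Lpin1 and the other genes given by a fold change were added after their values were seen. Positions, principal transcripts (APPRIS) and overlaps come from GENCODE M21 (GRCm38, the assembly of mm10), upstream sequences from RefSeq (GRCm38.p6). Targeting signals in protein sequences were not analysed here. Alternatives were other scalings (DESeq2 size factors, upper quartile, library totals), no low-count filter or a mean CPM of 5, DESeq2 1.42.0, limma-voom (limma 3.58.1), a fit without the 10 genes of highest count, and fits without 1 library each. Figures were drawn with matplotlib 3.10.9.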

Additional observations from a re-analysis of the deposited data

How the results depend on the processing

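No paired analysis was possible because the columns of the count table carry none of the triplicate numbers of the labels. For 28 genes given with values, 349 of 392 alternative values kept direction and side of the threshold, 29 lost the call, 14 gained it and 0 changed direction. Leaving out 1 library at a time gave 1 to 5 higher and 4 to 5 lower genes of the list, against 4 and 4 with all libraries, and 2 to 6 higher and 1 to 5 lower among the other peroxisomal genes, against 3 and 4. It gave 393 to 1496 called genes in all, against 1107 (462 without Lira161, 393 without Lira162, 653 without PBS157 and 414 without PBS158), and a median log2 fold change of the list between -0.03 (-0.0341) and 0.06 (0.0645). With DESeq2, 7 genes of the list were lower and 6 higher, Cat, Hao1 and Nudt7 and Crot and Ech1 being added, with 12.2% of all genes called. The higher count among the other peroxisomal genes was 7 with library totals or DESeq2 and 5 without the low-count filter. With library totals 57.2% of called genes were higher, against 46.5% with TMM, and the median of all genes was 0.06 against 0.01. With 3 libraries a group, a gene that was not called may still differ.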
